A study of Homo sapiens with 6 samples.

Results

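Replication-dependent histone genes are the large family of genes that supply the bulk histones for newly copied DNA. Their members were taken from the deposited table by symbol (H1-1 to H1-6, and every H2AC, H2BC, H3C and H4C gene together with H4-16), which gave 67 of the 19973 genes listed. They comprised 6 genes of the linker histone H1, 16 of H2A, 17 of H2B, 13 of H3 and 15 of H4, with 55 on chromosome 6, 11 on chromosome 1 and 1 on chromosome 12. RNA-seq had been carried out on OVCAR3, an established human ovarian cancer cell line, labelled wild type in both groups. One group was transfected with shNUF2, a short hairpin RNA against NUF2, and the other with shNC, the control hairpin, with 3 libraries per group. NUF2 is a subunit of the NDC80 complex, which joins the kinetochore to spindle microtubules. The labels give neither the time after transfection nor whether the libraries of a group came from separate cultures, and p-values therefore measure the spread between these libraries, which may be technical. A single hairpin against NUF2 was sequenced.

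Histones H2A, H2B, H3 and H4 form the octamer around which DNA is wrapped, and H1 binds the linker DNA between octamers. The replication-dependent genes lie in clusters, have no introns in their coding region and are transcribed mainly in S phase, under NPAT at histone locus bodies. Their mRNAs usually end in a conserved hairpin that is bound by SLBP and cut with the help of the U7 snRNP, rather than in a poly(A) tail, and they are degraded quickly when DNA synthesis stops. Replication-independent variants such as H2AZ1, H3-3A and H3-3B come from separate genes with ordinary polyadenylated mRNAs and are made throughout the cell cycle. The libraries were built with a stranded mRNA kit, which selects RNA by its poly(A) tail. Transcripts that end at the hairpin are poorly captured by such a kit, and how much of the signal below came from polyadenylated transcripts was not measured.

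Total counts ranged from 14115009 to 16995452 with shNC and from 13057534 to 15227460 with shNUF2. NUF2, the targeted gene, had 63.5, 68.6 and 63.5 CPM (read counts relative to the TMM-scaled library size) in the shNC libraries and 20.8, 22.3 and 25.5 CPM in the shNUF2 libraries, a log2 fold change of -1.51 (SE 0.08, adjusted p = 2.17e-15, edgeR quasi-likelihood test with Benjamini-Hochberg adjustment). Of the 8 markers listed for the identity of the line, KRT7, KRT8 and MSLN were read at mean levels of 668, 337 and 392 CPM with shNC, PAX8 at 10.1 CPM and CDH1 at 1.38 CPM. With shNUF2, 4 of the 8 were higher and 3 lower, against 33.9% and 33.8% of all genes tested, from KRT8 (log2 fold change 1.04) to MUC16 and MSLN (-0.75 each). Of 6 blood and endothelial markers, HBB had no read, and their summed level was 3.75 to 4.57 CPM with shNC and 5.19 to 8.93 CPM with shNUF2. The part of this difference in the results below was not tested.

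Counts of histone transcripts in these poly(A)-selected libraries were higher after shNUF2 in every class. All 67 genes together held 148, 154 and 150 CPM in the shNC libraries and 487, 471 and 491 CPM in the shNUF2 libraries. Every shNUF2 library was thus above every shNC library, and the means of 151 ± 3.01 and 483 ± 10.7 CPM (SD, n = 3) differed 3.2-fold. The exact two-sided permutation test of this total gave p = 0.10, the smallest value that 3 libraries against 3 allow. In these bulk libraries, more cells that make histone mRNA and more histone mRNA per cell cannot be told apart. A change in the polyadenylated share of histone mRNA, which the kit selects, was not tested.

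Of the 67 genes, 31 passed the filter on low counts and were tested, and 36 were not. With an adjusted p under 0.05, 27 of the 31 were higher with shNUF2, where 33.9% of all genes tested were called higher, and 0 were lower, where 33.8% of all genes tested were called lower (1, H4C15, at an unadjusted p under 0.05, edgeR). DESeq2 called 27 higher and 0 lower as well. By the study's thresholds, a log2 fold change beyond 1 with an unadjusted p under 0.05, 26 were higher against 9.41% of all genes, and 1, H4C15, was lower against 4.16% of all genes. The published methods do not name the scale of the fold change, which was read here as log2. In 27 of the 31 all shNUF2 values exceeded all shNC values, which held for 35.2% of all genes, and in 0 of the 31 all were below, which held for 35.4%. The median log2 fold change was 1.92, against -0.01 over all genes tested, and the values ran from -1.06 for H4C15 to 4.07 for H2BC7.

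The filter itself favours genes that are high in one group. H2BC6, H2BC7, H2BC17 and H4C5 passed it through the shNUF2 libraries alone, having no shNC library at the filter's limit of 0.682 CPM. A further 6, H1-4, H2AC13, H2BC4, H3C2, H3C6 and H4C3, had 1 or 2 shNC libraries at the limit and needed shNUF2 libraries to pass. All of these lie on chromosome 6, and the counts by class and chromosome below include them. In the 21 genes with every shNC library at or above that limit, 18 were higher by adjusted p and 16 by the study's thresholds, with a median log2 fold change of 1.54.

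**Figure D1:**
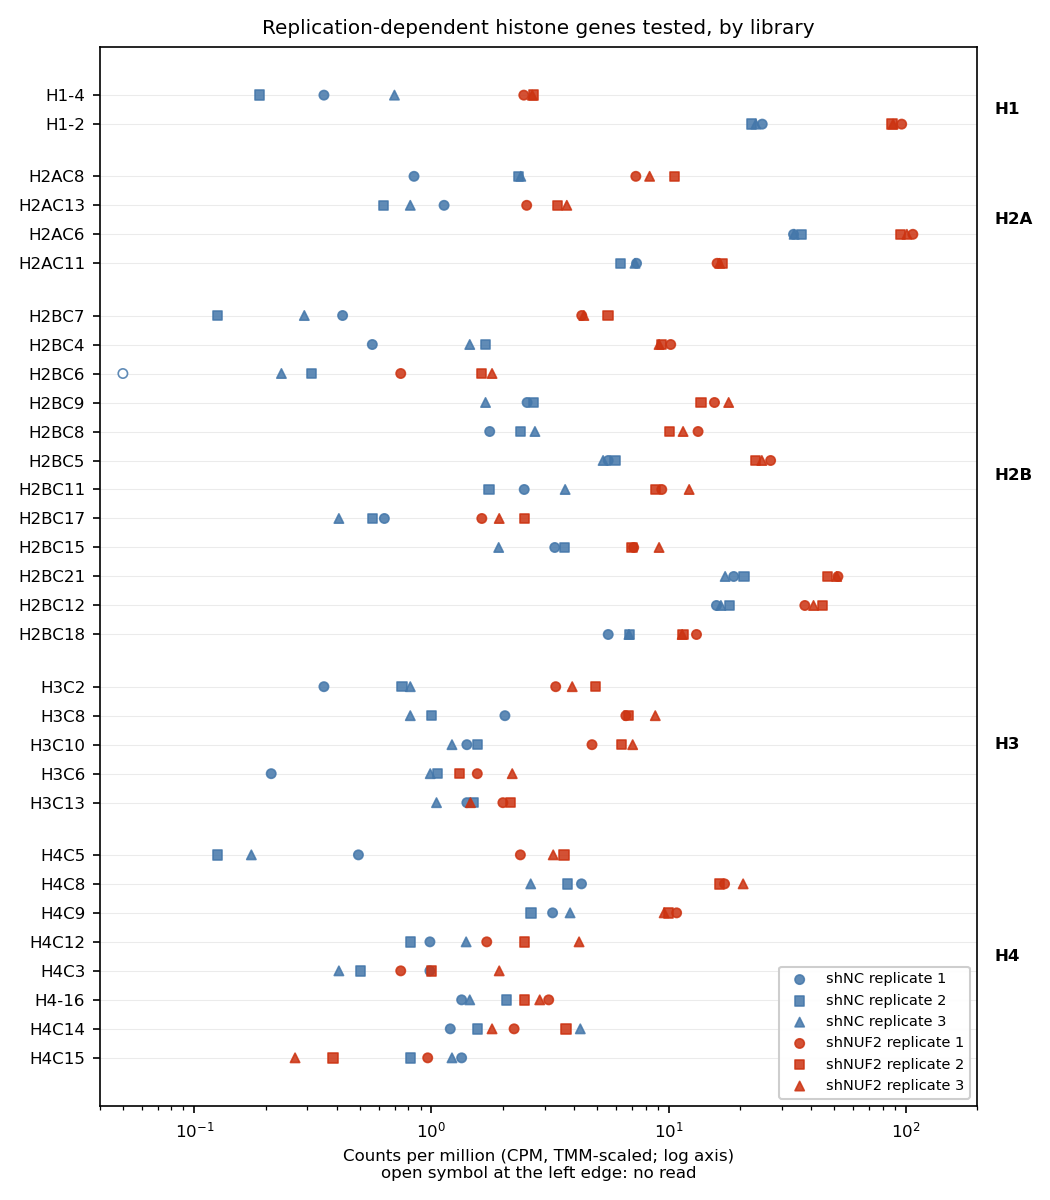
CPM of the 31 histone genes tested, on a log axis, with 1 point per library (blue shNC, red shNUF2) and genes grouped by class. The red points lie to the right of all blue points in 27 genes, the exceptions being H3C13, H4C3, H4C14 and H4C15, and the open symbol of H2BC6 marks a library with no read.

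The 3′ hairpin was read from the GENCODE release 29 transcripts (GRCh38), because these genes are usually described by it and the kit selects against mRNAs that end there. The pattern searched on the transcript strand was GGNNCTNNNNAGNNCC, with the outer 6 bases on each side able to pair, G with T included. It was found in 29 of the 65 members that the release contains (44.6%), and anywhere in a protein-coding transcript of 318 of 19684 protein-coding genes (1.62%). All 29 had it in an annotated 3′ UTR, and 6 distinct sequences were seen. The lines below show 1 gene for each of them, with the 16 bases of the hairpin in capitals and 5 bases on each side.
H2AC6, chromosome 6, 26124664 to 26124689, plus strand: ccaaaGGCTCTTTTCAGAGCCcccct
H2BC7, chromosome 6, 26199963 to 26199988, plus strand: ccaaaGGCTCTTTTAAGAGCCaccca
H2AC11, chromosome 6, 27133510 to 27133535, plus strand: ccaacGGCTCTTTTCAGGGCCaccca
H3C6, chromosome 6, 26225591 to 26225616, plus strand: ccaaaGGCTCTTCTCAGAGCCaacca
H4C8, chromosome 6, 26285126 to 26285151, minus strand: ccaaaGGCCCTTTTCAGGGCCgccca
H4C15, chromosome 1, 149860764 to 149860789, minus strand: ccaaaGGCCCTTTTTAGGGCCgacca
The H2AC6 hairpin was shared by 15 members and that of H2BC7 by 4 (H2BC4, H2BC5, H2BC7 and H3C8). The H4C8 hairpin was shared by 5 H4 genes and that of H4C15 by 3 H4 genes, H4C9, H4C14 and H4C15, while those of H2AC11 and H3C6 had 1 member each.

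Many of these transcripts are annotated well past the hairpin. In 21 of the 29 genes the longest transcript that carries the hairpin ran on for 100 bases or more, as in H2BC21 (1729 bases), H2AC6 (1128 bases) and H2BC7 (732 bases), and 19 of these 21 were tested, with a median log2 fold change of 1.64. In the other 8 that transcript ended within 100 bases, and 3 of these were tested, with log2 fold changes of 2.20 (H2AC8), 1.92 (H2AC13) and 2.15 (H2BC5). The deposited span of H2BC5, 26158146 to 26171349, reaches well past its hairpin, so its reads may come from other transcripts. The remaining 36 members had no match in the transcripts searched, and 8 of these were tested (median 1.64). Only annotated transcripts were searched, so a missing match does not show that a gene lacks the hairpin. By the deposited gene length, 12 of 46 members shorter than 1000 bp and 19 of 21 members of 1000 bp or more passed the filter, with medians of 1.93 and 1.64. The shorter genes summed to 57.7 CPM with shNC and 201 CPM with shNUF2, and the longer genes to 93.0 and 283 CPM, so that the difference between groups was present in both.

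Linker histone H1 had the largest ratio between the groups, 24.1 ± 1.51 CPM with shNC and 94.7 ± 4.89 CPM with shNUF2 (3.93-fold, SD, n = 3). Nearly all of it was H1-2, with 24.8, 22.3 and 23.3 CPM in the shNC and 96.0, 87.5 and 88.3 CPM in the shNUF2 libraries. The groups were far apart, and the log2 fold change was 1.95 (SE 0.07, adjusted p = 5.54e-19, edgeR quasi-likelihood test with Benjamini-Hochberg adjustment, which also applies to the adjusted p-values below). Per length, H1-2 had the highest level of any member with shNUF2 (32.5 FPKM with shNC, 122 FPKM with shNUF2). H1-4 was rare, with 5, 3 and 12 reads against 33, 35 and 40, and its log2 fold change was 2.61 (SE 0.40, adjusted p = 2.58e-06), or 3.25 without shNC replicate 3. The other 4 H1 genes were not tested, H1-3 with 1, 1 and 4 reads against 9, 7 and 14, and H1-6, an H1 of the testis, with 0 reads in the shNC libraries against 11, 4 and 3.

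All 4 H2A genes tested were higher, where 33.9% of all genes tested were. H2AC6 dominated the class and had the most reads of any member, at 33.6, 36.3 and 33.8 CPM with shNC and 107, 94.6 and 101 CPM with shNUF2 (log2 fold change 1.54, SE 0.06, adjusted p = 1.34e-17). H2AC8 rose from 0.844, 2.32 and 2.38 CPM to 7.27, 10.6 and 8.31 CPM (log2 fold change 2.20, SE 0.25), the first shNC library standing below the other two. H2AC11 rose least in the class, from 6.93 ± 0.582 to 16.4 ± 0.415 CPM (log2 fold change 1.24, SE 0.13), and H2AC13 rose from 0.855 ± 0.252 to 3.21 ± 0.619 CPM (1.92, SE 0.33). Summed over all 16 genes, H2A had 45.9 CPM with shNC and 132 CPM with shNUF2, a 2.88-fold difference. This was the smallest ratio of the 5 classes in CPM, whereas in FPKM the ratio of H4 (2.78) was below that of H2A (2.91). H2AC20, on chromosome 1, was not tested and its 17, 10 and 8 reads in the control libraries overlapped the 4, 17 and 9 reads of the shNUF2 libraries. H2AC19, also on chromosome 1, had 3, 2 and 1 reads against 4, 8 and 12, and it has a near-identical copy, H2AC18, with which reads could be shared.

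H2B had the most genes tested, 12 of 17, and all 12 were higher, where 33.9% of all genes tested were. With shNUF2 the highest levels per length were those of H2BC12 (34.4 ± 2.4 FPKM with shNC, 81.7 ± 7.75 FPKM with shNUF2), H2BC5 (6.51 and 28.2 FPKM), H2BC21 (8.75 and 22.4 FPKM) and H2BC4 (1.50 and 11.3 FPKM). H2BC12 had 15.9, 18.0 and 16.6 CPM with shNC and 37.5, 44.5 and 40.8 CPM with shNUF2, and its log2 fold change of 1.28 (SE 0.09, adjusted p = 1.74e-12) was among the smaller ones. H2BC5 moved further, from 5.56, 5.94 and 5.29 CPM to 26.9, 23.2 and 24.7 CPM (log2 fold change 2.15, SE 0.12, adjusted p = 1.81e-14).

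H2BC7 had the largest fold change of the members in edgeR and DESeq2. It had 6, 2 and 5 reads in the control libraries against 58, 72 and 66, or 0.422, 0.125 and 0.291 CPM against 4.30, 5.54 and 4.39 CPM, with a log2 fold change of 4.07 (SE 0.37, adjusted p = 3.14e-10). The groups were far apart, but the size of the ratio rests on few control reads, and with limma on log2(FPKM + 1) it was 1.99, below H2BC4 at 2.34. H2BC4 had 0.563, 1.69 and 1.45 CPM against 10.2, 9.31 and 9.11 CPM (log2 fold change 2.91, SE 0.25). H2BC9 had 2.53, 2.69 and 1.69 CPM against 15.6, 13.7 and 17.9 CPM (2.78, SE 0.18). H2BC6 had 0, 5 and 4 reads against 10, 21 and 27 (2.82, SE 0.59), the least precise value of the class, which was 0.50 with limma on log2(FPKM + 1) and 1.89 with log2(FPKM + 0.1). H2BC8, H2BC11 and H2BC17 had log2 fold changes of 2.33, 1.93 and 1.90.

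Of the 2 H2B genes of chromosome 1, H2BC18 had the smallest fold change of the class. H2BC21 had 18.8, 20.8 and 17.3 CPM against 51.7, 46.8 and 51.1 CPM (log2 fold change 1.40, SE 0.08, adjusted p = 6.43e-14). H2BC18, with 5.56, 6.82 and 6.80 CPM against 13.1, 11.5 and 11.4 CPM (0.90, SE 0.15, adjusted p = 5.32e-06), was called by adjusted p and not by the study's fold threshold. H2BC18 overlaps FCGR1A on the opposite strand, and H2BC15 (log2 fold change 1.41) overlaps H2AC16 on the same strand, so that reads of the overlapping stretches could not be assigned with certainty. H2BC13, not tested, had 0, 2 and 7 reads against 9, 12 and 4.

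H3 was the class with the lowest sum, 6.33 ± 0.806 CPM with shNC and 23.1 ± 2.94 CPM with shNUF2 (3.64-fold, SD, n = 3). All 4 H3 genes tested on chromosome 6 were higher, against 33.9% of all genes tested. H3C2 had 0.352, 0.751 and 0.814 CPM against 3.34, 4.92 and 3.92 CPM, a log2 fold change of 2.62 (SE 0.33, adjusted p = 1.10e-07). H3C8 had 2.04, 1.00 and 0.814 CPM against 6.60, 6.77 and 8.78 CPM (2.55, SE 0.27), and H3C10 had 1.41, 1.56 and 1.22 CPM against 4.75, 6.31 and 7.05 CPM (2.11, SE 0.25). In all of these the groups were well separated. H3C6 was closer, with 3, 17 and 17 reads against 21, 17 and 33 (log2 fold change 1.13, SE 0.42, adjusted p = 0.0205), and was no longer called without shNC replicate 1 (0.72, adjusted p = 0.128) or without shNUF2 replicate 3 (0.88, adjusted p = 0.124). H3C13, on chromosome 1, had 1.41, 1.50 and 1.05 CPM against 2.00, 2.15 and 1.46 CPM, and its log2 fold change of 0.50 (95% interval -0.15 to 1.15, adjusted p = 0.181) did not pass. H3C3, not tested, had 3, 8 and 4 reads against 5, 14 and 9.

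H4 was the class with the widest range of log2 fold changes, -1.06 to 3.56. H4C8 had the highest level per length with shNUF2 (1.66 FPKM with shNC, 8.24 FPKM with shNUF2), with 4.29, 3.75 and 2.62 CPM against 17.2, 16.4 and 20.6 CPM (log2 fold change 2.36, SE 0.16, adjusted p = 1.10e-12). H4C5 had 7, 2 and 3 reads against 32, 47 and 49 and a log2 fold change of 3.56 (SE 0.44, adjusted p = 6.44e-08), which was 4.28 without shNC replicate 1 and 1.37 with limma on log2(FPKM + 1). H4C9 had 46, 42 and 66 reads against 145, 130 and 144 (1.64, SE 0.18). These 3 genes were clearly apart between groups. H4C12 rose by less and with more spread (14, 13 and 24 reads against 23, 32 and 63, log2 fold change 1.38, SE 0.35, adjusted p = 0.00121), and without shNUF2 replicate 3 it was 0.95 (adjusted p = 0.0396), below the study's fold threshold. H4C3 overlapped between groups (14, 8 and 7 reads against 10, 13 and 29) and had a log2 fold change of 1.00 (SE 0.46) that passed the study's thresholds but not the adjusted p (0.0575). Leaving out each library in turn gave 0.49 (without shNUF2 replicate 3, adjusted p = 0.447) to 1.44 (without shNC replicate 1, adjusted p = 0.023), and the value was 0.99 with DESeq2 and 0.97 with library totals or the replicate block.

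H4-16, the member on chromosome 12, had 1.34, 2.07 and 1.45 CPM against 3.12, 2.46 and 2.86 CPM (log2 fold change 0.79, SE 0.29, adjusted p = 0.0177). That call was lost without shNC replicate 1, shNC replicate 3 or shNUF2 replicate 1 (0.68, 0.71 and 0.71, with adjusted p = 0.0695, 0.065 and 0.0635). On chromosome 1, H4C14 had 17, 25 and 73 reads against 30, 48 and 27, a log2 fold change of 0.10 (95% interval -0.62 to 0.81, adjusted p = 0.828), with the third shNC library far above the other two. Without that library its log2 fold change was 0.87 (adjusted p = 0.0418). H4C15 had 19, 13 and 21 reads against 13, 5 and 4 and the only negative value among the 31 genes (-1.06, SE 0.48, adjusted p = 0.0514). It was called lower by adjusted p without shNC replicate 2 (-1.25, adjusted p = 0.0434) or shNUF2 replicate 1 (-1.78, adjusted p = 0.0106), and fell short of the study's thresholds without any one of the other 4 libraries. H4C14 and H4C15 are near-identical copies that share the hairpin printed above, and reads common to both could have been split or dropped. Summed, the pair had 3.46 ± 1.74 CPM with shNC and 3.11 ± 1.01 CPM with shNUF2 (SD, n = 3).

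**Figure D2:**
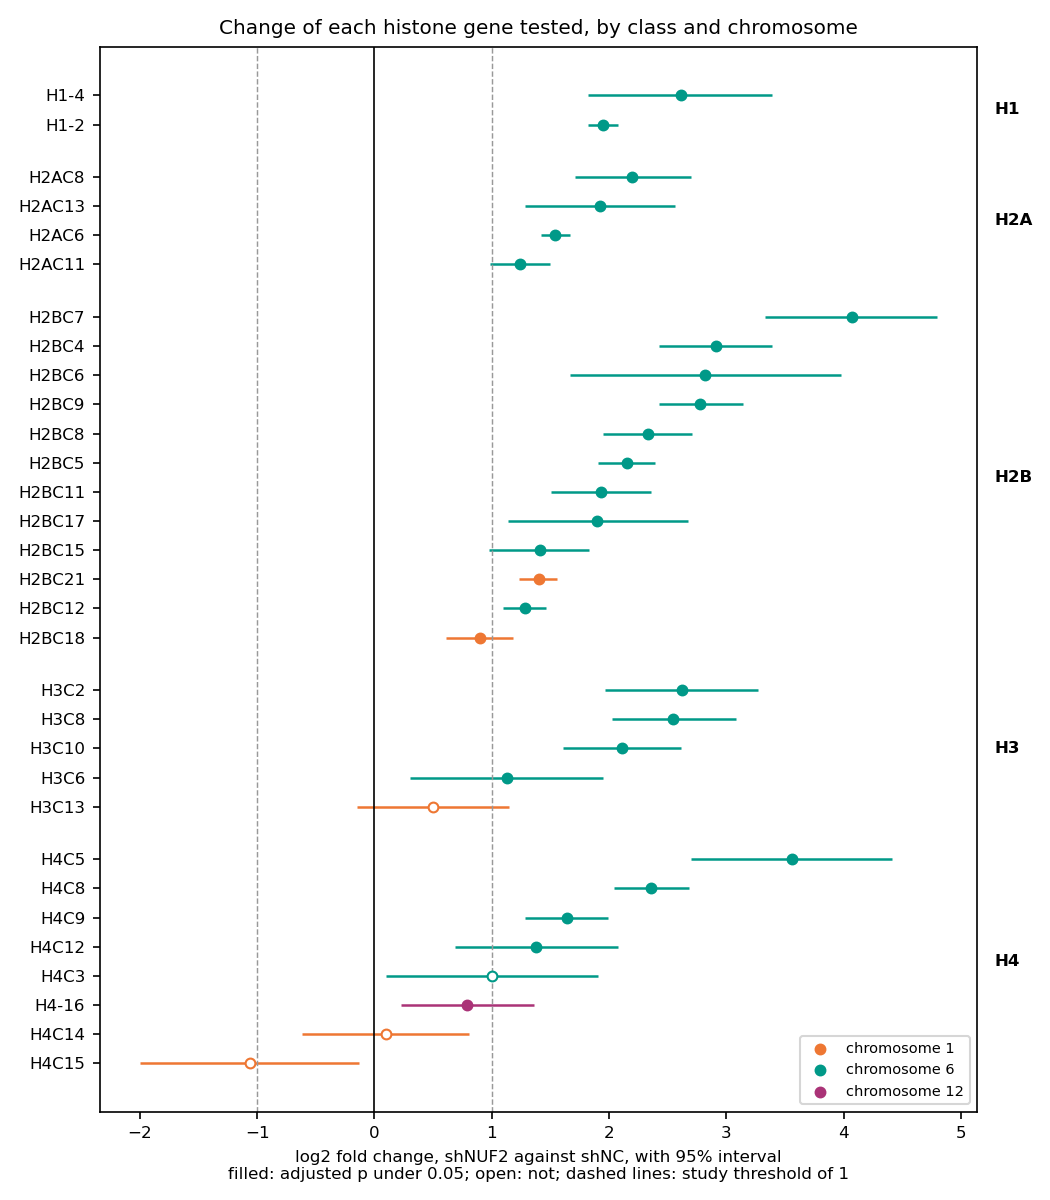
Log2 fold change (shNUF2 against shNC) of the 31 genes tested with 95% intervals, by class, coloured by chromosome, and filled where the adjusted p was under 0.05. The genes of chromosome 6 run from 1.00 to 4.07, and those of chromosome 1 from -1.06 to 1.40.

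The classes held similar shares of the histone total in both groups. H2B made up 38.7 to 42.0% of the summed CPM of all members with shNC and 39.3 to 40.0% with shNUF2, and the H3 and H4 shares also overlapped between groups. The share of H1 was higher, at 14.6 to 17.2% with shNC and 18.8 to 20.6% with shNUF2, and that of H2A lower, at 30.2 to 30.6% and 26.9 to 27.6%. For H1 and H2A, no shNC value fell within the shNUF2 range. The 4 genes with the highest CPM, by reads and not per length, held 59.3% of the total.

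**Figure D3:**
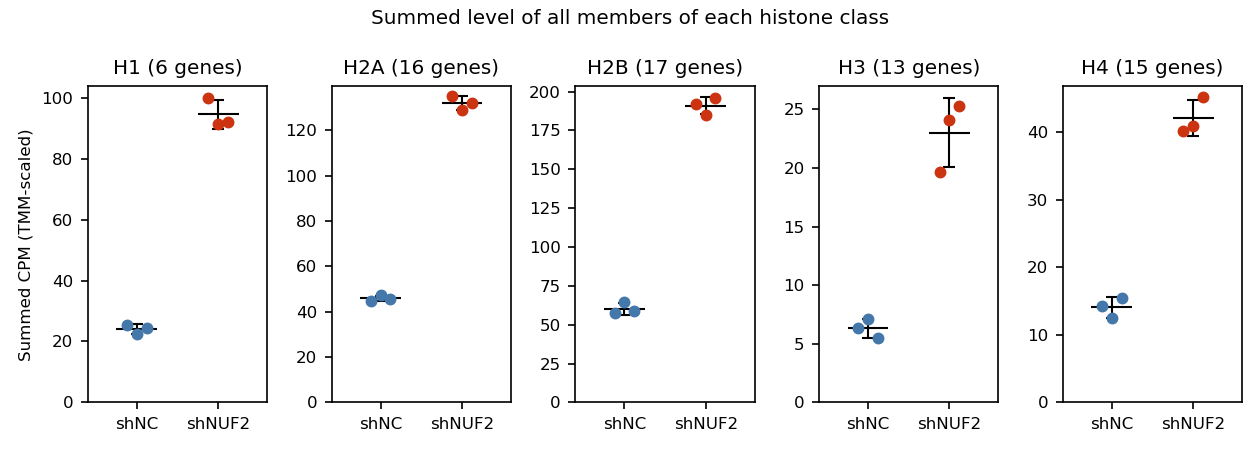
Summed CPM of all members of each class per library (points), with mean (line) and SD (bars), n = 3, and a separate axis from 0 for each class. The totals with shNUF2 were 2.88 to 3.93 times those with shNC, and no class had overlapping groups.

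Ratios were larger on chromosome 6 than on chromosome 1, a difference that was described over libraries and not tested across genes. On chromosome 6, 25 of 55 genes were tested, 24 were higher by adjusted p against 33.9% of all genes tested, and the summed level was 118 ± 1.55 CPM with shNC and 412 ± 9.54 CPM with shNUF2 (3.49-fold, SD, n = 3). These 24 include genes that passed the filter only with the help of shNUF2 libraries. On chromosome 1, 5 of 11 were tested and 2 were higher, a share near that of all genes, and the sums of 31.2 ± 1.27 and 68.5 ± 2.11 CPM differed 2.2-fold. Genes of chromosome 1 made up 20.7 ± 0.496% of the summed CPM with shNC and 14.2 ± 0.384% with shNUF2 (SD, n = 3), and the groups did not overlap. The same order was seen inside H2B, where the summed CPM differed 3.7-fold on chromosome 6 and 2.44-fold on chromosome 1. In H3 these ratios were 4.22 and 1.47, and in H4 they were 4.02 and 0.899. The last ratio turned to 1.27 without shNC replicate 3 and to 1.05 without shNUF2 replicate 3. The H3 ratio of chromosome 1 rested almost wholly on H3C13, which was not called. The H4 ratio there rested on H4C14 and H4C15, whose shared reads could have been split or dropped.

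The 36 genes that were not tested had at most 17 reads in any library. Of them, 9 had no read at all. Among the 27 with reads, the rate summed over the libraries was higher with shNUF2 in 24 and lower in 3. The matching share over all untested genes was not computed, so these counts have no background beside them. Reads of the 36 genes summed to 157 in the control group and 334 in the shNUF2 group, or 3.34 and 8.09 CPM. Their low counts set the limit here, and for most of them a difference was not detectable gene by gene at this depth.

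Upstream of the start site, members were searched for 3 sequences known from histone promoters, in the 250 bases before the start given in the RefSeq promoter table (GRCh38.p14), on both strands. The table matched 61 of the 67 members. The octamer ATTTGCAT, which is bound by POU2F1 (OCT1), was found in 26 of them (42.6%) and in 554 of 27305 genes of the table (2.03%). It was found in 14 of 17 H2B and 11 of 15 H2A genes, in 1 of 11 H3 genes, and in 0 of 6 H1 and 0 of 12 H4 genes. The H3 match belongs to H3C4 and lies in a start region that the table lists for H2AC7 as well, while the other start region of H3C4 has no match. CCAAT, the motif of the NF-Y complex, was found in 85.2% of members against 37.0% of all genes, with matches in every H1, H2A, H2B and H3 gene and in 3 of 12 H4 genes. TATAAA was found in 42 of the 61 members (68.9%) and in 3563 of the 27305 genes. The matches do not overlap each other in the windows shown here.

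The windows of 70 bases below belong to H2B and H2A genes described above, with every match to the 3 sequences in capitals, also where the window cuts it, and each given 5′ to 3′ on the strand of the gene.
H2BC7, chromosome 6, 26199375 to 26199444, plus strand, from -141 to -72: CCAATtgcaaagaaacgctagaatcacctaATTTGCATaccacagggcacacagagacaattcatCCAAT
H2BC8, chromosome 6, 26216697 to 26216766, minus strand, from -78 to -9: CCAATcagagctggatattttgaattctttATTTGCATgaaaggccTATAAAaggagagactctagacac
H2BC21, chromosome 1, 149886689 to 149886758, minus strand, from -76 to -7: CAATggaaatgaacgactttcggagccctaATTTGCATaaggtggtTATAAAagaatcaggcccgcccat
H2BC4, chromosome 6, 26124010 to 26124079, minus strand, from -153 to -84: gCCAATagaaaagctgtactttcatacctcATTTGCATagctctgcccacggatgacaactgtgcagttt
H2AC6, chromosome 6, 26124012 to 26124081, plus strand, from -160 to -91: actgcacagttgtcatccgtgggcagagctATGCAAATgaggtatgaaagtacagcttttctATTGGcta
Those of H2BC4 and H2AC6 overlap in 68 bases, read from opposite strands, and the pair shares 1 octamer. Among the genes tested, the median log2 fold change was 1.93 in the 13 with an octamer and 1.94 in the 16 without, 1.94 in the 24 with CCAAT and 1.38 in the 5 without, which were all H4 genes.

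**Figure D4:**
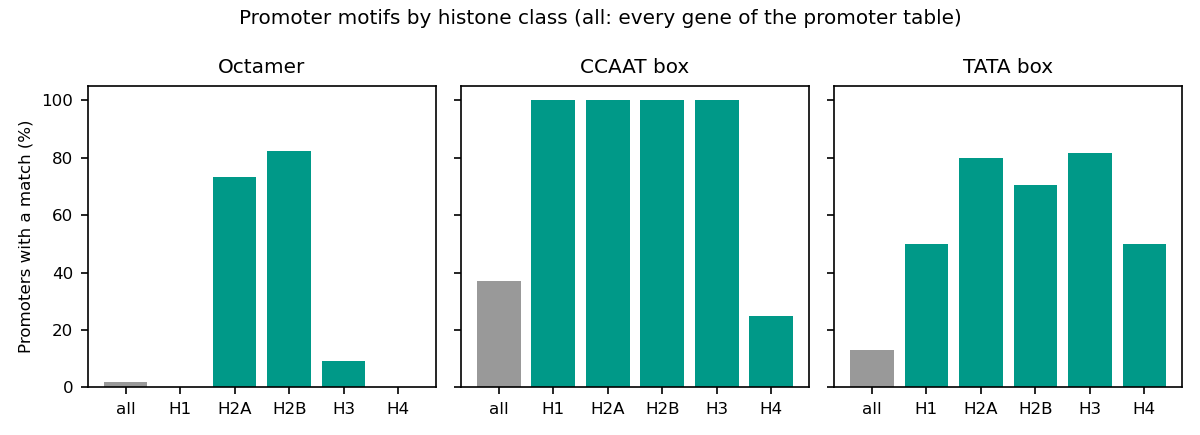
Percentage of promoters with a match to the octamer, CCAAT or TATAAA in the 250 bases before the start, for all 27305 genes of the RefSeq table (grey) and for each histone class (green). The octamer reaches 82.4% in H2B and 73.3% in H2A, and CCAAT reaches 100% in H1, H2A, H2B and H3.

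Many H2A and H2B genes stand head to head. Within 1000 bp of each other, 11 divergent pairs of members were found, 10 of them of an H2A with an H2B gene, and in 3 pairs both genes were tested. Both partners rose in each of the 3, by log2 fold changes of 2.91 for H2BC4 and 1.54 for H2AC6 (218 bp apart), of 2.33 for H2BC8 and 2.20 for H2AC8 (282 bp), and of 1.93 for H2BC11 and 1.24 for H2AC11 (246 bp). Other pairs were lopsided in level. H2BC12 had 34.4 and 81.7 FPKM in the 2 groups, while its partner H2AC12 had 0.186 and 0.109 FPKM, and H2BC7 had 0.236 and 3.92 FPKM against 0 and 0.0858 FPKM for H2AC7.

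Replication-independent variants were called in both directions. Of 15 such genes 10 were tested, and 6 were lower and 2 higher, where 33.8% and 33.9% of all genes tested were, and 2 were not called. Their median log2 fold change was -0.19, against -0.01 over all genes, in a range of -0.53 to 0.32. H2AX, the variant phosphorylated at DNA breaks, had 57.4 ± 7.07 CPM with shNC and 39.8 ± 1.97 CPM with shNUF2 (SD, n = 3, log2 fold change -0.53, adjusted p = 1.08e-06, edgeR). H3-3B and H3-3A, which encode the same H3 variant, were lower by log2 fold changes of -0.41 and -0.25, H2AZ2 by -0.32 and H2AZ1 by -0.21. CENPA, the H3 variant of centromeres, had a log2 fold change of -0.18 that did not pass (adjusted p = 0.123). H2AJ was higher, with a log2 fold change of 0.32. When counts were scaled by library totals only, 1 rather than 2 variants was higher.

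Factors that drive histone gene transcription had small differences in both directions. Of 14 tested, 5 were higher and 3 lower, against 33.9% and 33.8% of all genes, and 6 were not called (median log2 fold change 0.09). The count of higher genes was 3 by DESeq2 or with library totals only, and 6 with DESeq2 size factors in edgeR. NPAT, the coactivator of histone locus bodies, had 38.9 ± 3.29 and 44.5 ± 4.12 CPM (SD, n = 3, log2 fold change 0.20, adjusted p = 0.0304, edgeR), with overlapping groups. HINFP, which activates H4 genes, was higher by 0.36, POU2F1, which binds the octamer, by 0.43, and CDC25A, the phosphatase that activates CDK2, by 0.22. Lower values were found for NFYB (-0.69) and NFYC (-0.33), subunits of the CCAAT-binding complex, and for E2F1 (-0.45). None of these 14 passed the study's fold threshold in either direction.

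Genes that process or degrade histone mRNA were also called in both directions, with 14 lower and 7 higher of 26 tested, against 33.8% and 33.9% of all genes, and 5 not called (median log2 fold change -0.15). With DESeq2, 9 were lower and 7 higher. SLBP, the hairpin-binding protein, had 41.9, 40.8 and 49.6 CPM with shNC and 39.6, 39.5 and 37.8 CPM with shNUF2. Its log2 fold change was small, -0.18 (SE 0.08, adjusted p = 0.0406, edgeR). CASP8AP2 (FLASH), which acts at histone pre-mRNA cleavage, had 59.5 ± 4.29 and 39.9 ± 3.05 CPM (SD, n = 3, -0.58, adjusted p = 7.75e-08). MIF4GD (-0.92), a partner of SLBP in translation, CPSF2 (-0.86), of the cleavage complex, LSM10 (-0.61), of the U7 snRNP, and LSM4 (-0.58), of the LSM ring that takes part in mRNA decay, were also lower. ERI1, the exonuclease that trims the histone hairpin, was higher by 0.55, ZNF473, a U7-associated zinc finger protein, by 0.51, and TUT7, which adds uridines to histone mRNA, by 0.35. None of the 26 passed the study's fold threshold.

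Histone chaperones and importers were likewise mixed, with 13 lower and 5 higher of 25 tested, against 33.8% and 33.9% of all genes, and 7 not called (median log2 fold change -0.19). ASF1A, which carries H3 and H4, had 24.9 ± 1.49 CPM with shNC and 11.8 ± 2.23 CPM with shNUF2 (SD, n = 3, log2 fold change -1.07, adjusted p = 8.02e-09, edgeR) and was the only one past the study's threshold in that direction. ATRX (-0.80), a remodeller that deposits an H3 variant with DAXX, and HAT1 (-0.55), which acetylates new H4, were lower too. SPTY2D1, an H3 and H4 chaperone, was higher by 1.17, CABIN1, of the HIRA complex, by 0.71, and DAXX by 0.40.

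Other S phase genes were also examined. Of 32 such genes, among them genes of DNA replication and nucleotide supply, 18 were lower and 1 was higher, where 33.8% and 33.9% of all genes tested were, and 13 were not called. SLBP, MCM2 and CCNE2 also stand in 1 of the lists above. The summed level of the 32 was 3730 to 3760 CPM with shNC and 3170 to 3260 CPM with shNUF2. PCNA, the sliding clamp of DNA polymerases, had 160 ± 5.28 and 122 ± 6.53 CPM (SD, n = 3, log2 fold change -0.39, adjusted p = 8.05e-08, edgeR). The lowest values were those of PRIM1 (-1.12), the primase, POLA1 (-0.67), the polymerase that works with it, and UNG (-0.66), a uracil glycosylase. CDT1, the licensing factor degraded at S phase entry, was the gene called higher (85.7 ± 8.08 and 136 ± 2.10 CPM, 0.67). The share of cells in S phase was not measured in these libraries.

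**Figure D5:**
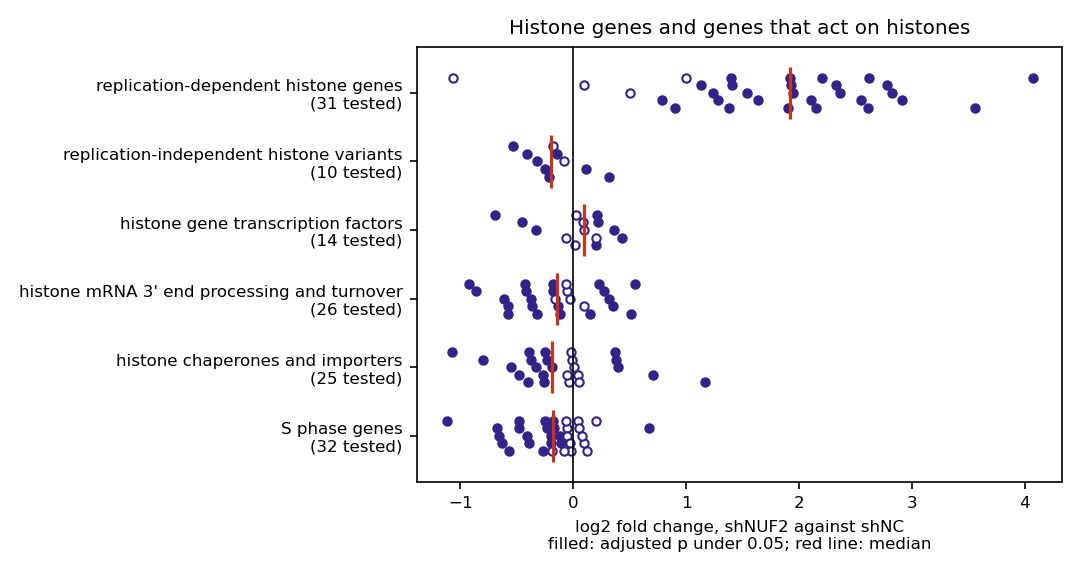
Log2 fold change (shNUF2 against shNC) of each gene tested, in rows for the replication-dependent histone genes and for 5 lists of related genes, filled where the adjusted p was under 0.05, with the median as a red line. The median of the histone genes is 1.92, and those of the other lists lie between -0.19 and 0.09.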

How the data were processed

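RNA of OVCAR3 cells transfected with shNC or shNUF2 (3 libraries each) was sequenced on an Illumina NovaSeq instrument after stranded mRNA library preparation. The authors deposited raw read counts per gene for 19973 genes, and FPKM values computed from the counts, gene length and library total. The submitters' processing notes name cutadapt, HISAT, HTSeq and GRCh38.p13, without versions. Strand setting, annotation release and treatment of reads with several matches are not given in the sources used here, and reads shared by near-identical or overlapping histone genes may have been split or dropped.

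Groups were taken from the sample labels. Counts were filtered with filterByExpr (12874 genes left), scaled by TMM and compared with edgeR 4.0.16 (R 4.3.3) by the quasi-likelihood test with no covariate, and p-values were adjusted by Benjamini-Hochberg over those 12874 genes. SE was obtained from the log2 fold change and its quasi-likelihood F statistic (ratio to the root of F), and 95% intervals follow from it. The biological coefficient of variation was 4.93%. Levels of single genes were compared in FPKM, and sums and shares of classes are in CPM. On simulated counts with 200 changed genes, edgeR recovered 200 among 12764 genes, with 15 false calls. The changed genes were drawn only from genes with higher counts, and all genes had the same dispersion. Recovery of members with low counts was therefore not tested.

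Named were all members past the study's thresholds, the 4 highest by FPKM and the extremes of each class, untested members with over 10 reads, and in each other list the 3 called genes with the largest change in each direction and a fixed set of regulators. The members and lists were chosen with earlier results of these data known. Some genes of the other lists are not reported here by name. Alternatives were other scalings and filters, DESeq2 1.42.0, limma 3.58.1 on log2 FPKM, a replicate block and leaving out each library. Sequences came from GENCODE release 29 and the RefSeq promoter table. Other tools were Python 3.11.15, pandas 2.3.3, numpy 2.4.6, scipy 1.17.1 and matplotlib 3.10.9. Rows naming no gene numbered 0.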

Additional observations from a re-analysis of the deposited data

How the results depend on the processing

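The count of 27 members called higher was 27 with every other scaling, with DESeq2 and with the replicate block, and 28 with limma on FPKM. It was 31 of 58 with no filter beyond 1 read, and 15 of 17 with at least 1 CPM in every library, where fewer genes were tested. By the study's thresholds, 13 were higher under the latter filter and 0 lower, and 16 of the 21 with every shNC library at the filter limit, an alternative added after seeing the data. Lower calls by adjusted p numbered 1 (H4C15) with upper quartile scaling, with library totals and with limma at either pseudocount. By the study's thresholds there were 0 with DESeq2 and with limma. The median log2 fold change of 1.92 was 1.79 without the filter, 1.57 with the stricter filter, 1.37 with limma and a pseudocount of 1, 1.54 in those 21 genes, and 1.64 in genes of 1000 bp or more. The 3.2-fold total was 3.12 with library totals and 3.29 without H2AC6. With limma and a pseudocount of 1, which understates the change of low genes, H2BC15 was 0.63 and H3C6 0.34, and H1-4 (1.50), H2BC9 (2.00), H2BC17 (1.27), H3C2 (1.98), H3C8 (1.39) and H3C10 (1.43) were also lower by over 1.5 times. Leaving out each library gave 26 to 27 members higher and 0 to 1 lower, 23 to 26 and 0 to 1 by the study's thresholds, medians of 1.72 to 1.95 and ratios of 3.18 to 3.24. H4C14 ranged from -0.25 to 0.87 and turned negative without shNC replicate 1 (-0.2), shNC replicate 2 (-0.13) or shNUF2 replicate 2 (-0.25). Of the members called, 25 kept their call in every alternative in which they were fitted. The cause of the other shifts was not tested.

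Same-numbered libraries showed no shared deviation from their group means (correlations of 0.0301, 0.0139 and -0.0434), so the numbers were not taken to pair them. The replicate block left 27 members higher and 0 lower by adjusted p, with a median of 1.91, 25 higher and 1 lower by the study's thresholds, and NUF2 at -1.51.

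Depth limits the 36 untested members, and the poly(A) selection limits what is known of mRNAs that end at the hairpin. Cell cycle phase was not measured, only 1 hairpin against NUF2 was used, and separate cultures are not stated.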
